A study of Mus musculus with 4 samples.

Results

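The PPAR, RXR and LXR genes encode 3 groups of nuclear receptors, and their 8 mouse members (Pparg, Ppara, Ppard, Rxra, Rxrb, Rxrg, Nr1h3 and Nr1h2) were chosen by name, as 8 of 26089 genes with curated RefSeq transcripts and of 20923 protein-coding genes. Binding of SMAD4 around them was read from HT-ChIPmentation, in which immunoprecipitated chromatin receives its sequencing adapters from Tn5 transposase before it leaves the beads. Alveolar macrophages (AMs) of adult wild-type C57BL/6J mice were collected by bronchoalveolar lavage and FACS, in aliquots of 200000 cells, and gave 2 SMAD4 libraries and 2 input libraries made without the antibody. All 4 samples share genotype, tissue and state, and no sample lacks SMAD4 or received a treatment. The labels do not say whether the replicates came from separate mice, so differences between them may be technical.

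PPARs bind fatty acids and their derivatives, and LXRs bind oxidized forms of cholesterol. Both bind DNA as heterodimers with an RXR, at pairs of the hexamer AGGTCA spaced by 1 base for PPAR-RXR (DR1) or by 4 bases for LXR-RXR (DR4). SMAD4 is the common partner of the SMAD proteins that TGFβ receptors activate. In AMs, which clear surfactant lipid, PPARγ is known as a factor that the cells need to mature, and TGFβ and GM-CSF are known to act upstream of it.

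Of the 8 genes, Pparg stood out in both replicates: its locus, the gene body or within 50 kb of a curated transcription start site (TSS), held 11 shared regions, merged intervals in which peaks of both replicates overlapped by at least 1 bp. The locus of Ppard, the PPAR present in most tissues, held 2. The loci of Rxra and of Nr1h3, the gene of LXRα, held 1 each. The loci of Ppara, the PPAR of fatty acid oxidation in liver, of Rxrb and Rxrg, and of Nr1h2, the gene of LXRβ, held none. Thus 4 of 8 receptor genes had a shared region, beside 39.1% of protein-coding genes (8181 of 20923) and 38% of all genes with curated transcripts, which is no result about the group. By the length of the locus, the background was 37.4% under 120 kb, 48.4% from 120 to 200 kb (the class of Pparg, Ppara and Rxra) and 45.7% above. The median was 0.5 shared regions per receptor gene, beside 0 over all protein-coding genes.

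The windows below show the sequence under the strongest binding at Pparg and at the Ppard and Rxra regions that lie inside those genes. Each window covers 100 bp on each side of the mean summit of a shared region, in mm10, forward strand, as given by RefSeq, and capitals mark matches to any of 14 strings spelled out further on. All 3 genes are transcribed from the forward strand. The Pparg windows are in order along the gene.
Pparg, intron 1, chr6:115375446-115375646: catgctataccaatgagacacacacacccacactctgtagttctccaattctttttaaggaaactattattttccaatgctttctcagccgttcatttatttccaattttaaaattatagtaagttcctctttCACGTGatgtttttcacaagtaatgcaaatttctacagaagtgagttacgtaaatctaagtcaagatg
Pparg, promoter of the 505-residue form, chr6:115421714-115421914: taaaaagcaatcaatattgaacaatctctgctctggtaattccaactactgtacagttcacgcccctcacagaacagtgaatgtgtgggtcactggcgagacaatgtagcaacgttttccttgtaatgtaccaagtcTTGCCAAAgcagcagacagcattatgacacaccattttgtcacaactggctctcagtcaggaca
Pparg, +2604 bp, chr6:115424570-115424770: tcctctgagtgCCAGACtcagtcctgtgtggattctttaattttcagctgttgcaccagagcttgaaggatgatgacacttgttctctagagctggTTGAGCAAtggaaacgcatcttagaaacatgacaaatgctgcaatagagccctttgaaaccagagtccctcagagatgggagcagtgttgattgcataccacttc
Pparg, +10633 bp, chr6:115432599-115432799: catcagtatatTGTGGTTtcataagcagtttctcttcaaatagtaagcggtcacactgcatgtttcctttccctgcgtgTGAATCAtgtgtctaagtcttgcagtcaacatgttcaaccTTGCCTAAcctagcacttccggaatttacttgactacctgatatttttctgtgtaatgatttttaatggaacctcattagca
Ppard, intron 2, chr17:28283359-28283559: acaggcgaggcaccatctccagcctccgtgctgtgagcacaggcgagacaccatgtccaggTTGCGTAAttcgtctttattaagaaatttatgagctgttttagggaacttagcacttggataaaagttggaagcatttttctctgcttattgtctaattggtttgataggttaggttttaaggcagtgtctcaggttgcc
Rxra, intron 1, chr2:27714305-27714505: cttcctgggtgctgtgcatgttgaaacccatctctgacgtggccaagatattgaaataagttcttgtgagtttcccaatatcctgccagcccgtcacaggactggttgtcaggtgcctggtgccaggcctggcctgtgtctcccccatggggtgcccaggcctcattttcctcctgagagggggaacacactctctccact
The distances in the Pparg names are from the start of the 505-residue transcript. At the Pparg intron 1 window the summits of the replicates were 153 bp apart, so its centre is the summit of neither. The capitals in 3 of the 4 Pparg windows include a C/EBP string, and in the Rxra window no string was found.

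Peaks were called in each replicate alone. The receptor loci held 17 peaks of replicate 1 and 22 of replicate 2 (mean 19.5 ± 3.54 SD, n = 2). Of these, 15 in each replicate had a partner in the other, or 15 of 17 and 15 of 22, beside 69.4% and 59.2% of all peaks. The Pparg locus had 13 peaks in replicate 1 and 11 in replicate 2. Ppard had 2 and 4, Rxra 1 and 2, Nr1h3 1 and 4, and Rxrb 0 and 1. Ppara, Rxrg and Nr1h2 had no peak in either list. Counted per list, 4 receptor genes had a peak in replicate 1, beside 46.6% of protein-coding genes, and 5 in replicate 2, beside 53.4%.

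**Figure D1:**
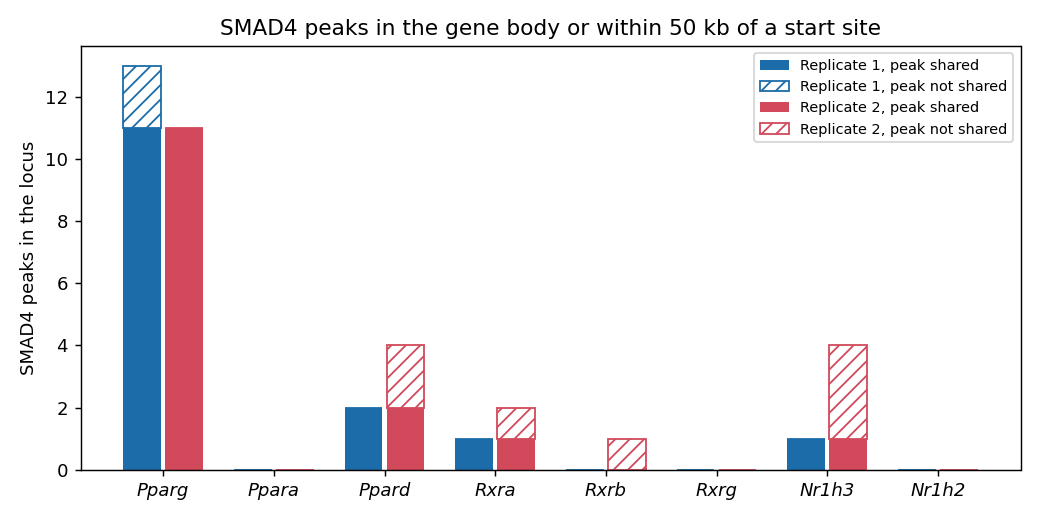
SMAD4 peaks (vertical axis, count) in the locus of each receptor gene, with replicate 1 in blue and replicate 2 in red. Filled parts are peaks that overlapped a peak of the other replicate and hatched parts are peaks that did not. Pparg had 13 and 11 peaks, and no other locus had more than 4 in a replicate.

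The lists come from 16369 and 19015 peaks, which formed 10964 shared regions. Each peak carries the fold enrichment of its summit, the fragments stacked there plus 1 over a control level plus 1. Solving fold and p together gave the fragment numbers used here, with median values of 17 and 14 fragments per peak. The control level at most summits was 2.08 fragments in replicate 1 (79.3% of peaks) and 1.22 in replicate 2 (80.9%). This is a constant background value of each replicate, not a level read at each summit. At that level the smallest fold called was 3.25 in replicate 1 and 3.60 in replicate 2, so weaker binding was not detectable at this depth. Loci of AM marker genes held a shared region in 10 of 10 cases. For markers of T cells, B cells, alveolar epithelium, airway epithelium and endothelium it was 1 of 4 each, and for neutrophils 2 of 4, all beside the 39.1% of protein-coding genes. Binding near a gene is not its expression, and the part of other cells in the lists was not tested. The marker genes were also chosen with earlier results of these data known.

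Pparg lies on chromosome 6 at 115360951 to 115490401 on the forward strand of mm10. Of its 4 curated transcripts, 3 start within a short stretch at 115360951, 115361144 and 115362349 and encode the 475-residue protein. The last starts 61115 bp downstream of the first, at 115422066, has 7 exons in place of 8, and encodes the 505-residue form, PPARγ2. No other gene has a curated TSS in the 179.451 kb of the locus. All 11 shared regions lay inside the gene body and had a Pparg TSS as the nearest one. Their mean summits were in introns in 10 cases and in a promoter in 1, the promoter of the 505-residue form. Promoters were taken from 1 kb before a TSS to 100 bp after it. Such a position was seen for 6.42% of all shared regions, and a shared region in their promoter for 2.92% of protein-coding genes.

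The promoter region was the strongest of the locus. It ran from 115420553 to 115422497, 1945 bp, wider than 99.9% of all shared regions, and crossed the start of the 505-residue transcript. Fold enrichment at its summit was 33.8 in replicate 1 and 49.6 in replicate 2, a mean of 41.7 ± 11.2 (SD, n = 2). The replicates differ in control level, so an SD of folds, here and below, is not the spread of fragment numbers. These folds stand for 103 fragments (exact Poisson 95% interval 84.1 to 125) and 109 fragments (89.5 to 131), intervals that cover counting error only. It ranked 49 in replicate 1 and 50 in replicate 2 of 10964 shared regions. The summits of the replicates were 49 bp apart, and their mean lay at -252 bp from the TSS, where a minus sign means upstream. A predicted noncoding Pparg transcript, not among the curated ones, starts at 115421735, also inside this region.

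The region next to it was almost as strong. It spanned 115423954 to 115425099, in the first intron of the 505-residue transcript, with its summit 2604 bp downstream of that start. Its folds were 28.9 and 37.5 from 88 and 82 fragments, which placed it at 97 of 10964 by the smaller fold. The summits of the replicates were 27 bp apart. In replicate 1 a separate small peak of 4.22-fold and 12 fragments stood at its upstream side, at 115423810 to 115423944, without a partner.

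A further strong region lay at 115432294 to 115433052, 10633 bp downstream of the same start, with folds of 15.9 and 25.7 from 48 and 56 fragments. Between these was a weak region at 115430959 to 115431254 with folds of 6.5 and 5.87. Upstream of the start, the regions at 115411557 to 115411948 and 115412384 to 115412759 had folds of 4.55 and 6.32, and of 5.85 and 5.44. Thus 6 of the 11 regions had their summit within 15 kb of the start of the 505-residue form, the 3 strongest of the locus among them.

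The upstream starts had no shared region in their promoters. Their nearest region, at 115368524 to 115369017 in intron 1, lay 6367 bp downstream of the start at 115362349, with folds of 8.12 and 12.2. The region at 115375274 to 115375836 was also in intron 1, 13197 bp from that start. It was the fourth strongest of the locus, with folds of 13.0 and 13.5, a mean of 13.3 ± 0.38 (SD, n = 2). These close folds stand for unlike fragment numbers, 39 and 29, over control levels of 2.08 and 1.22. The region at 115380851 to 115381282 was the weakest, with folds of 2.63 and 4.21. There the control level was also raised, at 4.70 and 1.85 fragments, and the q-value of replicate 1 was 0.0396.

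Toward the end of the gene, 2 regions lay in the intron that is number 5 of the longer transcripts and number 4 of the shorter one. They spanned 115459514 to 115460061, with folds of 6.17 and 8.12, and 115462712 to 115463062, with folds of 5.52 and 5.87. A peak of replicate 1 alone, at 115452773 to 115452892, had 3.58-fold and 11 fragments. From first to last the 11 regions spanned 94.539 kb, of which 7302 bp were covered. The gaps between neighbouring summits had a median of 5910 bp and ran from 890 to 30694 bp.

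**Figure D2:**
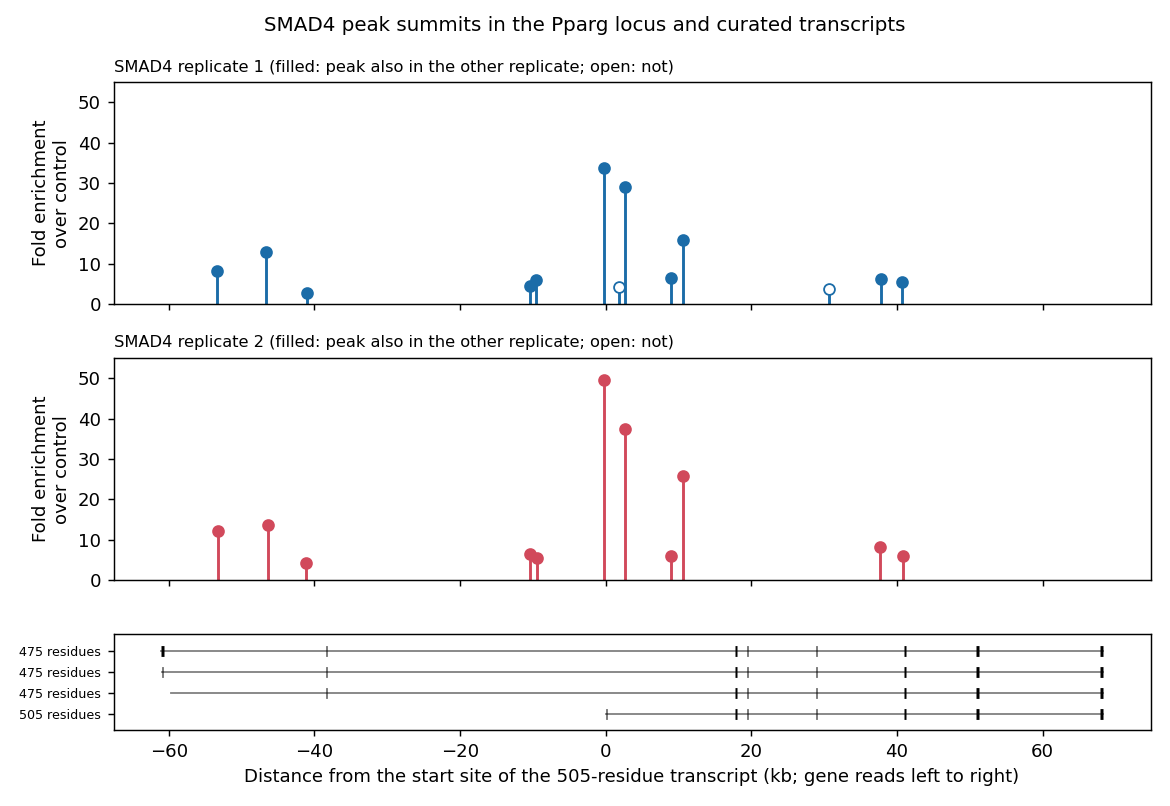
Fold enrichment over control (vertical axis) of each SMAD4 peak summit at Pparg against the distance in kb from the start of the 505-residue transcript (horizontal axis), replicate 1 in the upper and replicate 2 in the middle panel. Filled points are shared peaks, open points are not, and the lower panel draws the 4 curated transcripts with exons as thick marks. Both replicates had their highest peak, 33.8-fold and 49.6-fold, just upstream of that start.

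Most Pparg regions were of ordinary strength. The median fold over the 11 regions was 6.50 in replicate 1 and 8.12 in replicate 2, beside 6.82 and 9.48 over all shared regions, and 5 of 11 were above the median in both replicates. Their median width was 494 bp, beside 440 bp over all. The locus differed from most in the number of regions, with 6.13 shared regions per 100 kb. This was 14.3 times the 0.428 per 100 kb of the sequenced genome, which includes sequence outside gene loci. By regions per 100 kb of locus, 107 protein-coding genes had denser loci. At least 11 shared regions were found at 37 protein-coding genes, 0.177% of all, and 24 genes had more. Longer loci held more shared regions on average, with a mean of 0.723 per gene under 120 kb, 1.20 from 120 to 200 kb and 1.56 above. Among the 2172 genes with loci of 120 to 200 kb, 9 had at least as many (0.414%). By the strongest region with its own TSS nearest, Pparg ranked 33 among 4193 genes. No test stands behind these ranks, since the study has 1 condition in 2 replicates.

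**Figure D3:**
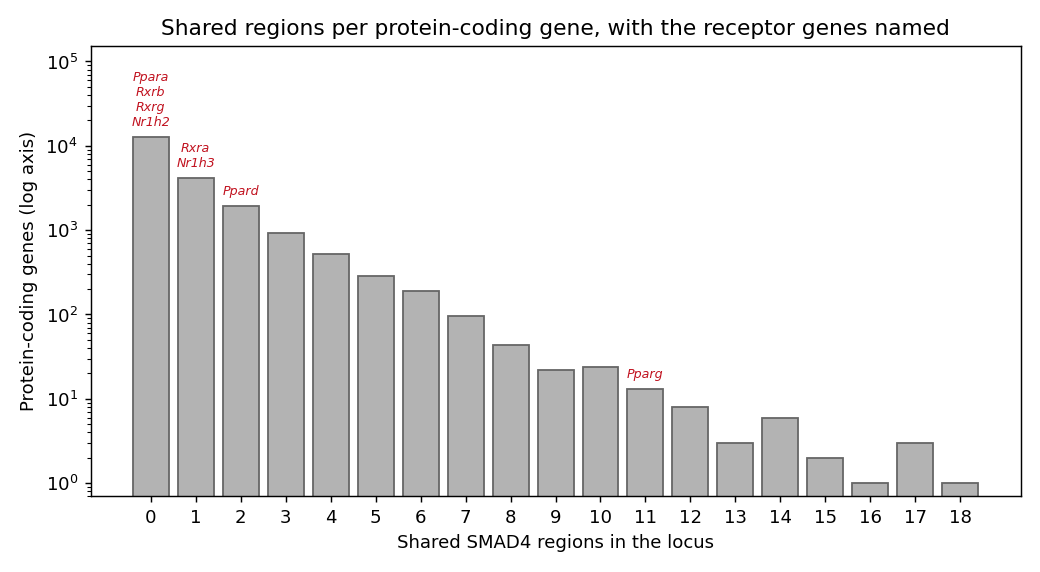
Number of protein-coding genes (vertical log axis) with each number of shared SMAD4 regions in the locus (horizontal axis). The 8 receptor genes are named above the bar they belong to. Pparg is among 37 genes with at least 11 regions, and 4 of the 8 receptor genes stand at 0.

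Ppard lies on chromosome 17 at 28232754 to 28301469, forward strand, and both shared regions of its locus were nearer to another gene's TSS. The stronger one, at 28283231 to 28283577, was in intron 2 of Ppard, 50705 bp downstream of the start, where the nearest TSS is that of 1810013A23Rik at 11751 bp. Its folds were 6.82 and 14.4 from 20 fragments (95% interval 12.2 to 30.9) and 31 fragments (21.1 to 44.0). The summits of the replicates were 1 bp apart. The other one, at 28217852 to 28218248, lay at -14663 bp from the Ppard start in an intron of Def6, the gene of a guanine nucleotide exchange factor of immune cells. Its folds were 4.87 and 6.32 from 14 and 13 fragments. Replicate 2 alone had a pair of peaks in the Ppard body, at 28256771 to 28256889 and 28256953 to 28257077, with 10 and 12 fragments.

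Rxra, the RXR gene known as the most widely active, lies on chromosome 2 at 27677201 to 27763319, forward strand, with no other gene's TSS in its locus. Its single shared region, at 27714206 to 27714615, was in intron 1, 3822 bp downstream of the start at 27710583, from which a 439-residue protein is made in place of the 467-residue one of the first start. Folds were 8.45 and 12.6, a mean of 10.5 ± 2.96 (SD, n = 2), from 25 fragments (16.2 to 36.9) and 27 fragments (17.8 to 39.3). By the smaller fold it was above 69.1% of all shared regions. A peak of replicate 2 alone followed at 27715184 to 27715616, with a fold of 7.22 from 15 fragments. Rxra and Pparg were the only receptor genes with a shared region nearest to their own TSS, 2 of 8, beside 20% of protein-coding genes. Their loci hold no other gene's TSS, while those of Ppard and Nr1h3 hold TSSs of 2 and 4 other genes. This count therefore depends on neighbouring genes as well as on binding.

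Rxrb lies in the gene-rich major histocompatibility region of chromosome 17, at 34031812 to 34038403, with TSSs of 7 other genes in its locus. It had no peak in replicate 1. Replicate 2 had 1, at 34072219 to 34072374, with a fold of 6.32 from 13 fragments, 39.94 kb from an Rxrb start and nearest to H2-Oa, an MHC class II gene. Rxrg, the RXR gene known mainly from muscle and brain, lies on chromosome 1 at 167598362 to 167639623. Its nearest shared region was 178.659 kb away, by Mgst3.

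Nr1h3 lies on chromosome 2 at 91184061 to 91195116, reverse strand. The shared region of its locus, at 91228458 to 91228693, was at -33409 bp from a start, in an intron of the DNA repair gene Ddb2, and had folds of 4.55 and 8.12 from 13 and 17 fragments. The 3 peaks of replicate 2 alone had 8 to 9 fragments and lay in the promoters of its neighbours Madd, Acp2 and Ddb2. None of the 5 peaks in its locus was nearest to Nr1h3 itself. Nr1h2 lies on chromosome 7 at 44549616 to 44553965, reverse strand, and its nearest shared region was 272.822 kb away. For Ppara, on chromosome 15 at 85735564 to 85806851, that distance was 375.554 kb, the largest of the 8.

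**Figure D4:**
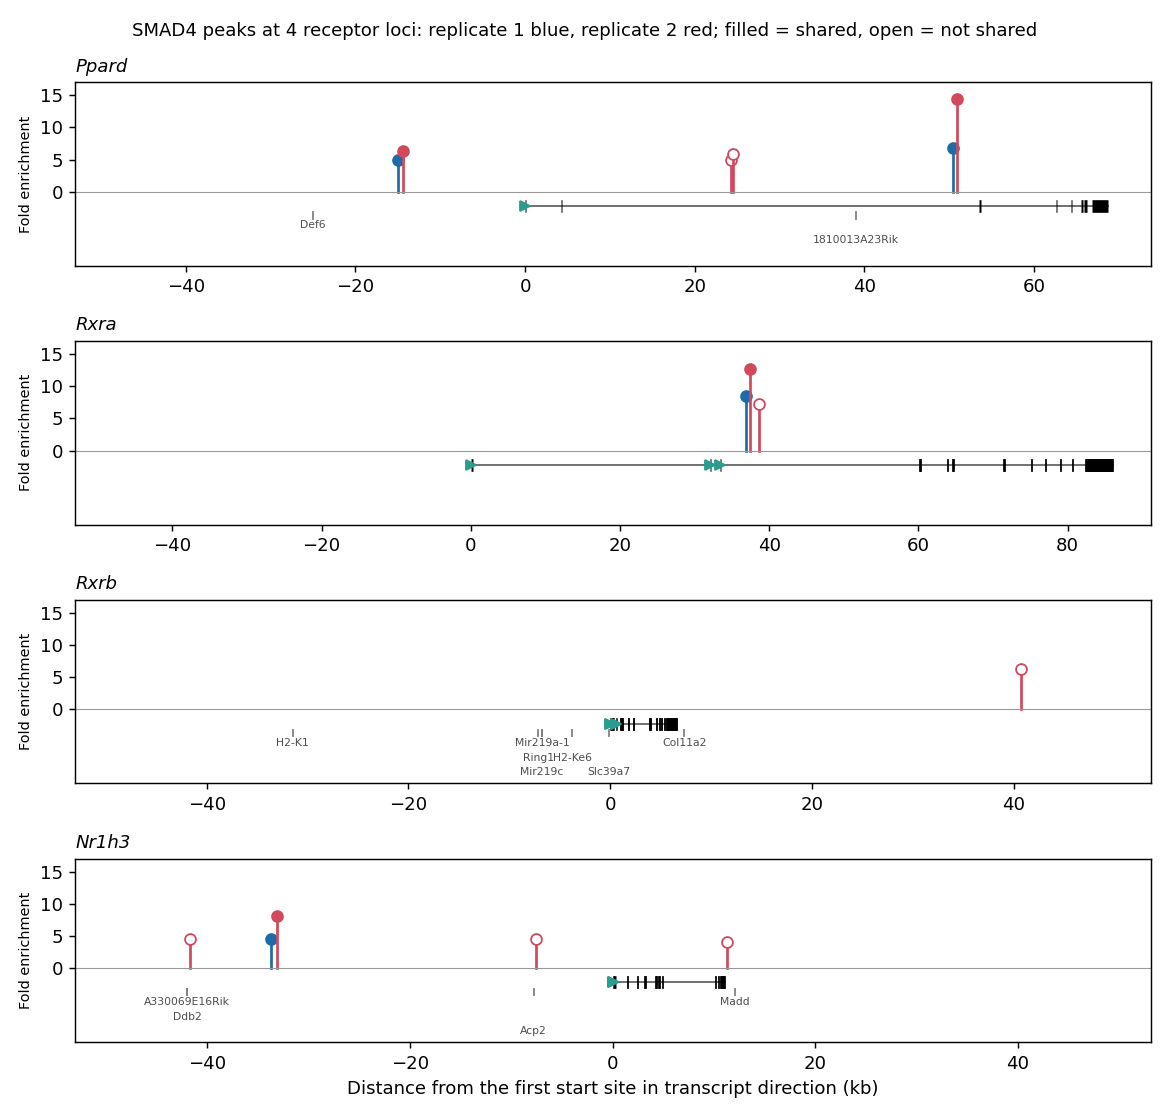
Fold enrichment (vertical axis) of each peak at Ppard, Rxra, Rxrb and Nr1h3 against the distance in kb from the first start site in transcript direction (horizontal axis), replicate 1 in blue and replicate 2 in red, drawn side by side. Filled points are shared and open points are not, black bars are exons, green arrowheads are start sites of the receptor gene, and grey ticks with names are neighbouring genes, 1 start each. Rxra alone of these has a shared peak nearest to its own start.

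At the 50 kb limit of the loci, the outermost shared region of Pparg was 40.762 kb from a TSS, inside the gene body. For Ppard the first shared region outside was at 51.76 kb, by Zfp523, with folds of 5.20 and 10.4. For Nr1h3 it was at 55.293 kb, by Pacsin3, with folds of 8.45 and 7.22. At Rxra and Rxrb the distances were 83.613 kb and 84.977 kb.

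The folds of both replicates were compared region by region. The log2 ratio of fold, replicate 2 over replicate 1, ranged from -0.15 to 0.69 at the 11 Pparg regions, with a median of 0.40. Over all shared regions the median was 0.47 and the 5th to 95th percentiles were -0.23 to 1.16. All 15 receptor regions lay between those percentiles. The control level at most summits was 2.08 in replicate 1 and 1.22 in replicate 2, so equal fragments give a higher fold in replicate 2. The Pparg region at -10362 bp had 13 fragments in each replicate and a ratio of 0.47, so a ratio near this median is no difference in fragments. The largest shift was at Ppard intron 2, with 1.08. Spearman's rho of the folds was 0.907 over the 11 Pparg regions and 0.782 over all 10964. These are correlations over regions that share 2 libraries and a depth, so regions are not independent replicates. Peaks without a partner had folds of 3.58 to 4.22 from 11 to 12 fragments in replicate 1 (2 peaks) and of 4.06 to 7.22 from 8 to 15 fragments in replicate 2 (7 peaks), where the medians over the whole list were 6.77-fold and 14 fragments. The strongest of them, at Rxra, was thus above those medians, while both unshared peaks of replicate 1 were below its medians of 5.52-fold and 17 fragments.

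**Figure D5:**
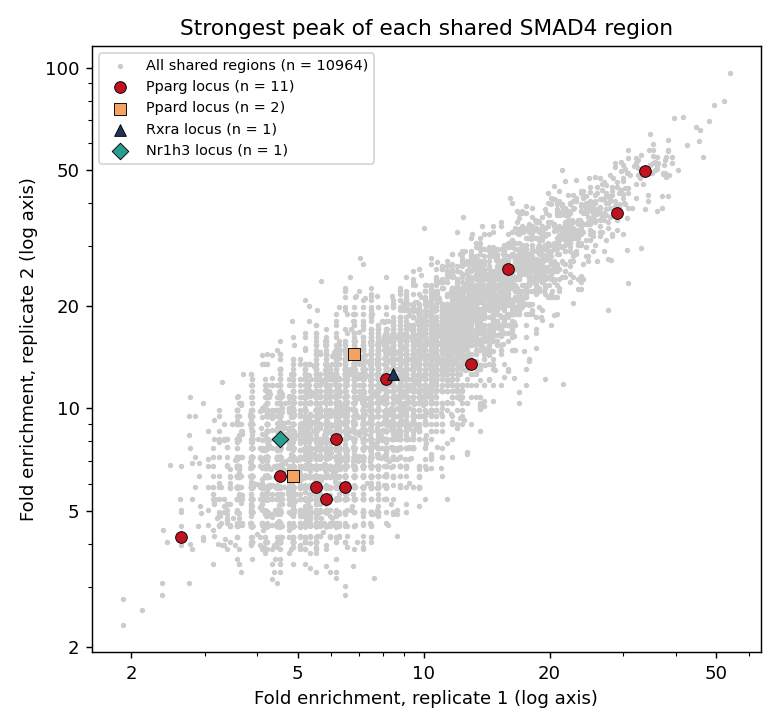
Fold enrichment of each shared region in replicate 2 (vertical log axis) against replicate 1 (horizontal log axis), with all 10964 regions in grey and the 15 receptor regions coloured by gene. The Pparg regions run from 2.63-fold and 4.21-fold to 33.8-fold and 49.6-fold and stay inside the grey cloud.

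Strings of 14 kinds were searched on both strands of the windows. The C/EBP string TTGCNNAA, of a factor family of myeloid cells, was found most often, in 9 of 15 receptor windows, beside 40.9% of all shared regions. It was in 7 of the 11 Pparg windows. Among these were the promoter window, as TTGCCAAA 41 bp from the summit, and the window at 2604 bp, as TTGCTCAA on the reverse strand at the summit itself. The window at 10633 bp held TTGCCTAA together with TGAATCA, a match to the AP-1 string TGANTCA, and TGTGGTT, the RUNX string. The AP-1 string was in 2 receptor windows, both of Pparg, beside 12.3% of all, and the RUNX string in 1, beside 10.8%. The Ppard window in intron 2 held TTGCGTAA, and the Nr1h3 window held TTGCACAA.

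Strings of the SMAD proteins were searched in the same windows. GTCTGG was in 2 of the 15 windows, both of Pparg, at 2604 bp and at 37746 bp from the start of the 505-residue form, beside 11.2% of all regions. Windows at the summit of replicate 2 held it in 1 of 15, and windows of 50 bp on each side in 0. GGCGC was in 1 window, that of the Ppard locus region inside Def6, beside 5.24%, and the palindrome GTCTAGAC in none, beside 0.465%. The nuclear receptor hexamer AGGTCA was in none of the 15 windows, beside 15.4% of all. DR1 and DR4, copies of this hexamer spaced by 1 and 4 bases, each searched with up to 2 mismatches in all, were in none either, beside 4.3% and 2.14%. The count of AGGTCA changed with the window. Windows of the same width at the summit of replicate 2 held it in 2 of 15, beside 15.4% of all, and those at the summit of replicate 1 in 0 of 15, beside 15% of all. Within 200 bp on each side it was in 2 of 15, beside 26.6%, and over the whole regions in 3 of 15, beside 29.8%. These letters say nothing of whether a receptor binds there.

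Of the other strings, RBPJ (GTGGGAA) was in 2 Pparg windows, beside 4.14%, at the regions 6367 bp downstream of the third start and at -10362 bp from the last one. STAT5 (TTCNNNGAA) was in 1, next to a C/EBP string in the region at -9472 bp from the last start, beside 8.06%. The E-box CACGTG was in 1, in the intron 1 window printed above, beside 3.65%. ETS (CAGGAAGT) was in 1, the same window inside Def6, beside 5.62%, and PU.1 (GAGGAAGT) in none, beside 8%. With windows at the summit of replicate 2 alone, RBPJ was in 1 window and STAT5 in 2, and with windows at that of replicate 1 the E-box was in 0. The 15 windows had a median GC content of 36.8% (24.9% to 55.7%), beside 43.8% over all, and their part in the string counts was not tested.

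Genes that work with these receptors were described by the same count, beside the 39.1% of protein-coding genes. The lists were chosen with earlier results of these data known, so a high share is no test of binding at them. Of 17 PPAR target genes, 14 had a shared region, with a median of 2 per gene, and 11 had one nearest to their own TSS, beside 20% of protein-coding genes. The strongest was at the fatty acid transporter Cd36, in an intron 1874 bp from a start, with folds of 37.4 and 48.7. Plin2, which coats lipid droplets, had 30.2 and 50.5 at an intergenic region -20318 bp from its start, and the mitochondrial carrier Ucp3 had 15.9 and 24.8. Of 13 LXR target genes, a list that holds Nr1h3 itself, 9 had a shared region, with a median of 1. Of these 13 genes, 4 had one nearest to their own TSS. Here the cholesterol exporters Abca1, with 22.1 and 35.6, and Abcg1, with 15.3 and 20.3, led, followed by the phosphodiesterase gene Smpdl3a with 9.25 and 17.6.

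Among 11 other receptors that pair with RXR, 6 had a shared region and 3 had one nearest to their own TSS, beside the same 39.1% and 20%. These were the retinoic acid receptors Rarb, with folds of 8.45 and 12.6, and Rara, with 6.50 and 7.67, and the orphan receptor Nr4a1, with 5.20 and 9.48 in its promoter. Of 14 coactivators and corepressors 10 had a shared region, and 6 had one nearest to their own TSS. The strongest were at the coactivator Ncoa2 (15.3 and 17.6), the corepressor Nrip1 (10.7 and 16.2) and Tbl1xr1, a subunit of corepressor complexes (7.47 and 22.6). Of 16 enzymes and carriers of receptor ligands 7 had a shared region, with a median of 0. In 6 of these genes a region was nearest to their own TSS. Ch25h, which makes the LXR ligand hydroxycholesterol, had 16.6 and 14.9, the phospholipase Pla2g4a 12.7 and 16.2, and the lipoxygenase Alox15 8.12 and 13.1. Of the genes of these lists, Cd36 had a higher fold than the Pparg promoter region in replicate 1 (37.4 against 33.8). Plin2 had a higher one in replicate 2 (50.5 against 49.6). Of the AM marker genes counted earlier, Chil3 was above that region in both replicates, with 45.8 and 65.4.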

How the data were processed

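SMAD4 binding was measured in AMs by HT-ChIPmentation in 2 replicates, numbered in accession order, with 2 input samples. The input samples have no values of their own here. The authors aligned Cutadapt-trimmed reads to mm10 using Bowtie2, removed duplicates and called peaks with MACS3 in each sample. For every peak they deposited a fold ratio over control, a −log10 p, a −log10 q and a score. The deposited score was only read for its format. All peaks passed the authors' q-value limit of 0.05 (largest q 0.0434 and 0.0467). Depth was read from the peaks, as fragments at the summit solved from fold and p. On peaks simulated with the same formula 100% were recovered. This checks the solving step alone and cannot show that the deposited values follow that formula.

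Summits were assigned to the 8 genes by curated RefSeq transcripts of GRCm38, the assembly of mm10, within the gene body or 50 kb of a TSS. Shared regions, nearest TSS, features and 14 strings in 201 bp windows were computed in Python 3.11.15 (numpy 2.4.6, pandas 2.3.3, scipy 1.17.1). Poisson intervals are exact at 95%. No group comparison was possible with 1 condition, and no p-value was computed. Named genes were all 8 receptors, the 3 genes of each list with the strongest own region, and neighbours whose TSS was nearest. The first region outside the Pparg locus is not reported here. The receptor genes and gene lists were chosen with earlier results of these data known. Alternatives covered the window, the overlap, the q and fold limits, the gene models, the summit window and leaving out a replicate.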

Additional observations from a re-analysis of the deposited data

How the results depend on the processing

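Of 245 values recomputed under 17 alternatives, 44 moved by more than the limit set for them. For counts and shares the limit was a fixed ratio or a change to or from 0. For the median fold and the log2 ratio it was an SD. Only the log2 ratio could turn direction, and 0 of its values did. Counting only regions nearest to their own TSS left 2 of 8 receptor genes, 13 peaks in replicate 2 and 20.04% of protein-coding genes. A window of 100 kb gave 23 shared regions, 26 peaks in replicate 1 and 34 in replicate 2, and one of 10 kb gave 20.6% of genes. A fold of at least 5 left 11 peaks in replicate 1 and raised the median smaller fold from 6.17 to 8.12. Over whole regions, an alternative chosen after seeing the data, 36 string matches were found in place of 20. With 1 replicate left out, so that regions were the peaks of the other alone, receptor genes ran from 4 to 5 and regions from 17 to 22. The share of genes ran from 46.6% to 53.4% and the median fold from 6.17 to 6.32. String matches were still counted in the regions shared by both replicates. With windows at the summit of 1 replicate they ran from 18 to 22. Pparg held 8 to 13 regions under every alternative run, with 8 where the summits of the replicates had to lie within 100 bp. Nr1h3 lost its region at a fold of 5, at 10 or 25 kb or with its own TSS nearest. No paired analysis was possible because the numbers follow accession order and 1 group alone has values. At 7 to 9 fragments for the weakest peaks, depth limits any statement that a locus lacks binding.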
